A study of Mus musculus with 7 samples.

Results

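The AP-1 and EGR immediate early factors Fos, Fosb, Fosl2, Jun, Junb, Jund, Egr1, Egr2, Egr3 and Egr4 were examined in mouse long-term haematopoietic stem cells that carry a mutant calreticulin gene (Calr). The 10 genes were chosen by symbol from the 19649 genes of the deposited table. All 10 passed the filter on low values and belong to the 16047 genes tested. The mutant libraries (mutant 1 to 3) carry MxCre with both Calr copies del52 (Calr del52/del52, from floxed alleles labelled Calr fl/fl), and the wild-type libraries (wild-type 1 to 4) carry MxCre with Calr +/+. The del52 allele models a frameshift deletion in the last exon of CALR found in human myeloproliferative neoplasms. MxCre is a Cre recombinase under an interferon-inducible promoter that acts in blood cells and in other tissues. Every mouse, wild-type mice included, was given the interferon inducer pI:pC to switch Cre on, and no other treatment was given. Cells were sorted 14 days after induction began for CD150, Kit and Sca-1 on the surface and for the absence of CD48 and lineage markers. The sources used here give no animal ages, sexes or pooling and do not say whether each library came from a separate mouse, so p-values measure the spread between these 7 libraries, which may be technical. The sample titles of mutant 1 and 2 and of wild-type 3 and 4 carry numbers of a shared series, and those of mutant 3 and of wild-type 1 and 2 do not. No source used here calls that series a batch.

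Immediate early genes are transcribed within minutes of a stimulus by factors already present in the cell, mainly the serum response factor with its ternary complex partners and the factor CREB, which MAP kinases activate. Their transcripts are short-lived. The Fos and Jun proteins pair through leucine zippers to form AP-1, and the EGR proteins are zinc-finger factors that bind GC-rich sites. In mice, Egr1 is known for keeping haematopoietic stem cells quiescent, and Junb for restraining their expansion. Genes of this class are also known to be induced while tissue is dissociated and cells are sorted.

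Reads per library numbered 21325340 to 28710304 over the genes of the table. The 2 wild-type pairs were far from each other, with 7215 genes called by limma between them. Deviations of wild-type 3 and 4 from the gene mean also rose with log exonic length, with slopes of 0.24 in both, against -0.18 to 0.01 in the other 5 libraries. Calr itself had 14239, 15724 and 15317 normalized counts in mutant 1, 2 and 3, against 18606, 16639, 15922 and 15965 in wild-type 1, 2, 3 and 4. The count covers the whole gene and does not check the deletion. The 11 stem cell markers reported here summed to 35742 to 40395 normalized counts in mutant libraries, 56126 to 57598 in wild-type 3 and 4 and 32366 to 34292 in wild-type 1 and 2, the order of most of the factors. Of the first 3 on that list, the transcription factor genes Hlf and Mecom were highest in wild-type 3 and 4, whereas Procr, the endothelial protein C receptor gene, had 3143 to 4192 in mutant libraries, 2273 to 2314 in wild-type 3 and 4 and 2971 to 3197 in wild-type 1 and 2. The 7 mast cell, basophil and eosinophil markers were also highest in wild-type 3 and 4, with sums of 7095 to 9690 in mutant libraries, 16901 to 18333 in wild-type 3 and 4 and 8369 to 9409 in wild-type 1 and 2. The 16 neutrophil and monocyte markers summed to 23080 to 68876 in mutant libraries, 63032 to 103235 in wild-type 3 and 4 and 58748 to 65839 in wild-type 1 and 2. The 6 megakaryocyte markers summed to 6422 to 12875 in mutant libraries, 8953 to 12835 in wild-type 3 and 4 and 15977 to 20590 in wild-type 1 and 2. Erythroid, B cell, T and NK cell, macrophage and endothelial markers each summed to at most 4109 in any library. None of these markers was at 0 in every mutant library. The part of other cells in the results was not tested, and fewer cells of a type cannot be told apart from less RNA per cell.

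Promoter windows are shown for 5 members that between them hold every kind of motif found, a choice made after the values and matches were seen. RefSeq windows (GRCm38.p6) of 300 bases, 250 before and 50 from the start site, were used for 8 of the 10 members. These were Fos, Fosb, Fosl2, Jun, Junb, Jund, Egr2 and Egr4. Both strands were searched, and positions count from the start site. The windows printed lie at chr12:85473640-85473939 on the plus strand for Fos, chr4:95052173-95052472 on the minus strand for Jun, chr10:67537619-67537918 on the plus strand for Egr2, chr6:85513540-85513839 on the minus strand for Egr4 and chr5:32136222-32136521 on the plus strand for Fosl2. Capitals mark the letters TGACG or CGTCA (the core of the CRE, the element that CREB recognises), TATAAA (the TATA box), CCATATATGG (a CArG box, the element of the serum response factor), TGACATCA (an AP-1-like site) and GCGNGGGCG (an EGR site).
Fos: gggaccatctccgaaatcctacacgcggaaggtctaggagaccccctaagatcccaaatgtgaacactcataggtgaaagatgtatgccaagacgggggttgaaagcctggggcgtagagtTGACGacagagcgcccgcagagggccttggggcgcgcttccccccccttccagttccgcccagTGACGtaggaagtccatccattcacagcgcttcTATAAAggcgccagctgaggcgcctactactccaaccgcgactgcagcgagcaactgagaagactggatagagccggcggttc
Jun: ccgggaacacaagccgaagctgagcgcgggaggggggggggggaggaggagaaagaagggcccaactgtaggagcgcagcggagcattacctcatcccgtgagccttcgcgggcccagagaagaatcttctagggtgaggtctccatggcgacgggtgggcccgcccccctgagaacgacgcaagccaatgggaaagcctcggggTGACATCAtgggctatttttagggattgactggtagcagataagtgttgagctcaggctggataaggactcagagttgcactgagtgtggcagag
Egr2: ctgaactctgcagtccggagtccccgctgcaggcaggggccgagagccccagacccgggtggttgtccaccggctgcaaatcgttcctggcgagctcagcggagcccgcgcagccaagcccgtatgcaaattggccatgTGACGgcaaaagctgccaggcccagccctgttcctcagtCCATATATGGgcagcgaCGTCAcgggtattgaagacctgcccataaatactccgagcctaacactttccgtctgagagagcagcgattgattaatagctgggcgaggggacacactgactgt
Egr4: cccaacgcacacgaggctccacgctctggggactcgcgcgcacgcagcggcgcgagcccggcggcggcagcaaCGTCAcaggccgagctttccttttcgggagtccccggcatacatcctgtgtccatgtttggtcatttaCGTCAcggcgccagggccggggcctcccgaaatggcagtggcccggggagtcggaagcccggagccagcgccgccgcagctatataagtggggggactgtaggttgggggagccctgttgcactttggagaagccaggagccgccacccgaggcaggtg
Fosl2: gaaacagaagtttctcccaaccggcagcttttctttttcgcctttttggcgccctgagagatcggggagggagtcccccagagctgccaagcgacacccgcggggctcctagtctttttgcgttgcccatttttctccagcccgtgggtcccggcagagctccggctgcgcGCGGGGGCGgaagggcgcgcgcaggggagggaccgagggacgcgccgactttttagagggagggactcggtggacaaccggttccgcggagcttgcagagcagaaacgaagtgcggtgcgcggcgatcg
The Fos window held TGACG at positions -129 and -66 and TATAAA at -33. The Egr2 window, 1 of 5 listed for that gene, held TGACG at -111, CGTCA at -55 and the CArG box between them at -72. Egr4 held CGTCA at -177 and -109, Jun held TGACATCA at -45 and Fosl2 held GCGNGGGCG at -79, though its RefSeq start lies 671 bases from the GENCODE start of the gene. Among windows not printed, Fosb held TGACG at -60 with an EGR site at -50, and Junb held TGACG at -106 and TATAAA at position 1. The Jund window held none of the motifs, and its RefSeq start lies 1210 bases from the GENCODE start. Of all 32851 windows in the table, 20.8% held TGACG on either strand, 1.63% a CArG box, 13.6% TATAAA, 3.62% TGACATCA and 5.55% GCGNGGGCG. The full CRE TGACGTCA, which contains that core, was in 1.79% of windows and the AP-1 site TGANTCA in 7.81%, and neither was found in the 8 members' windows. These matches describe the letters in the windows and do not show binding.

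Most of these factors were intermediate in mutant libraries. In 9 of the 10 genes, all but Fosl2, every mutant library lay above both wild-type 1 and 2 and below both wild-type 3 and 4. Among all genes tested 4.07% showed this order. In 7 of the 10, wild-type 1 was the lowest library, wild-type 2 the next and wild-type 3 and 4 the highest pair, an order found in 2.52% of genes. The 10 genes together took 0.815%, 1.43% and 0.599% of reads in mutant 1, 2 and 3, against 2.04% and 1.97% in wild-type 3 and 4 and against 0.115% and 0.345% in wild-type 1 and 2. The sign of the mutant difference therefore depended on which wild-type libraries stood on the other side.

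**Figure D1:**
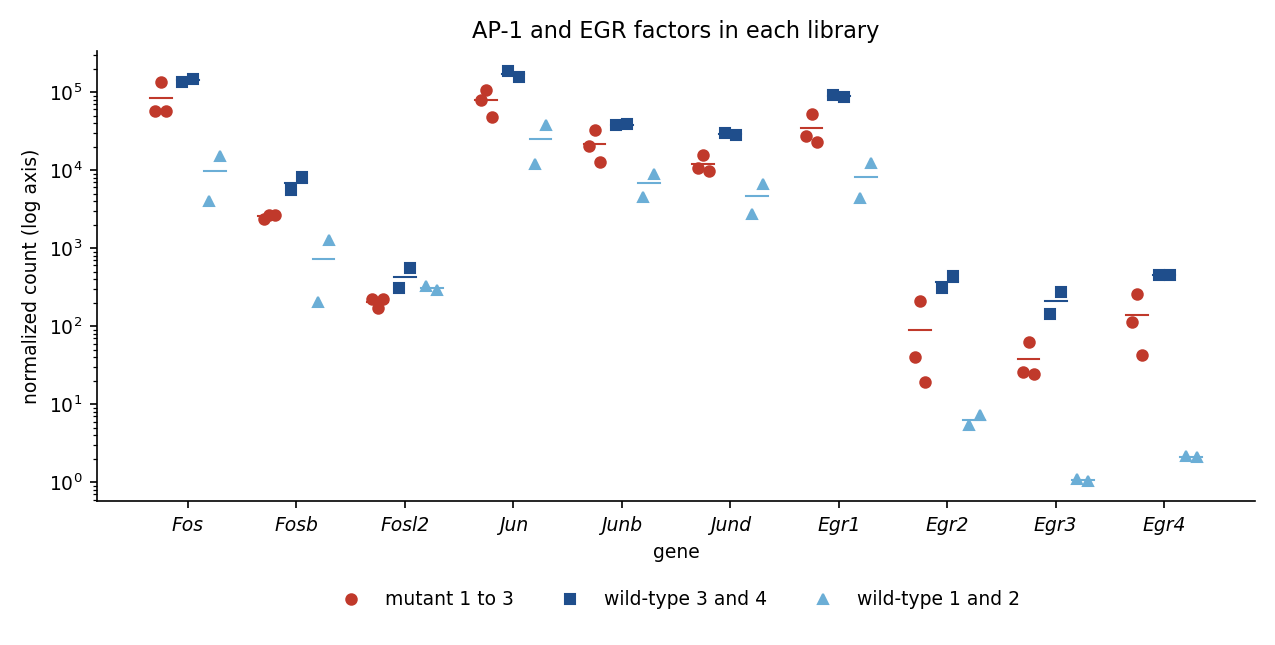
Normalized counts (log axis) of the 10 factors in each of the 7 libraries, with red circles for mutant 1 to 3, dark squares for wild-type 3 and 4, light triangles for wild-type 1 and 2 and short lines for group means. Mutant libraries lie between the wild-type pairs in 9 genes and below all wild-type libraries in Fosl2.

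Against wild-type 1 and 2, limma called 3 members higher in mutant libraries, namely Fos, Egr3 and Egr4, and none lower. Of all genes tested, 0.255% were called higher and 0.0561% lower. Egr2, Egr3 and Egr4 had under 10 normalized counts in both of these wild-type libraries and passed the filter through the others. Some difference was thus implied for them by the filter, and the share over all genes does not allow for this. All mutant libraries were above both of these wild-type libraries in 9 members, against 13.9% of all genes, and below both in Fosl2, against 12.4%. The members' median log2 difference was 2.23, and that over all genes tested was close to 0. The calls depended on single libraries. Without wild-type 1, limma called 0 members and 0 genes, with 964 genes at an unadjusted p under 0.05. That fit leaves wild-type 2 alone in its group, assumed to vary like the other groups, and the log2 differences of Egr3 and Egr4 stayed at 4.11 and 5.14, against 4.09 and 5.11 with all libraries, while that of Fos was 2.31, against 3.28. Without wild-type 2, which leaves wild-type 1 alone, Fos, Fosb and Jund were called. Without mutant 2 or without mutant 3, 8 members were called, where 3.71% and 1.15% of all genes tested were called in either direction. Without mutant 1, Egr3 and Egr4 were called, where 0.206% of all genes were. edgeR called 1 member (Egr4) and 0.150% of all genes, and DESeq2 called 7 members and 2.41%. For limma on all libraries that share was 0.312%.

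Against wild-type 3 and 4, limma called 7 members lower in mutant libraries (Fosl2, Jun, Jund, Egr1, Egr2, Egr3 and Egr4) and none higher, where 24.7% of all genes tested were called lower. In all 10 members every mutant library was below both of these wild-type libraries, against 33.8% of all genes. The members' median log2 difference was -1.37. Without wild-type 3 only Fosl2 and Egr3 were called, and without wild-type 4 only Jund, in fits where a single library stands for the pair and is assumed to vary like the other groups. Differences of the members that lost their call stayed close without wild-type 3, such as -1.29 for Jund, -2.95 for Egr2 and -2.08 for Egr4, against -1.33, -2.71 and -2.07 with all libraries. Without mutant 2 all 10 were called, where 55.9% of all genes tested were called in either direction, against 46.8% with all libraries. Without mutant 1 or mutant 3, 6 members were called, Jun being lost, where 37.3% and 41.7% of all genes were called. Egr3 and Egr4 were called both higher than in wild-type 1 and 2 and lower than in wild-type 3 and 4, as were 10 of all genes tested (0.0623%). Both comparisons share the mutant libraries, so they are not independent of each other.

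The wild-type pairs also differed from each other. In wild-type 3 and 4, limma called 9 members higher than in wild-type 1 and 2, where 24.1% of all genes tested were called higher, and Fosl2 was not called. In the same 9 members both libraries of wild-type 3 and 4 were above both of wild-type 1 and 2, against 39.2% of all genes. Egr4 had the fourth highest and Egr3 the ninth highest log2 difference of the 16047 genes. Egr2, Egr3 and Egr4 passed the filter only through libraries other than wild-type 1 and 2. Some difference was thus implied for them, and neither the ranks nor the shares over all genes allow for this. The members' median log2 difference was 3.67. The same 9 members were called with any single library left out.

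Against all 4 wild-type libraries, limma called 0 members and 0 genes (0% of genes tested), with 1365 genes at an unadjusted p under 0.05. edgeR also called 0 genes, with 1639 at an unadjusted p under 0.05, and DESeq2 called 107 genes but no member. Fosl2 was the sole member with an unadjusted limma p under 0.05, at 0.0165. The other 9 members had positive log2 differences of 0.06 to 1.52, yet in 8 of them the mutant arithmetic mean was below the wild-type mean, so that the direction depended on how the 4 wild-type libraries were averaged. Fosb, for example, averaged 2553 ± 155 normalized counts in mutant libraries and 3813 ± 3759 in wild-type libraries (SD, n = 3 and 4), with a log2 difference of 0.46 (limma adjusted p = 0.836).

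**Figure D2:**
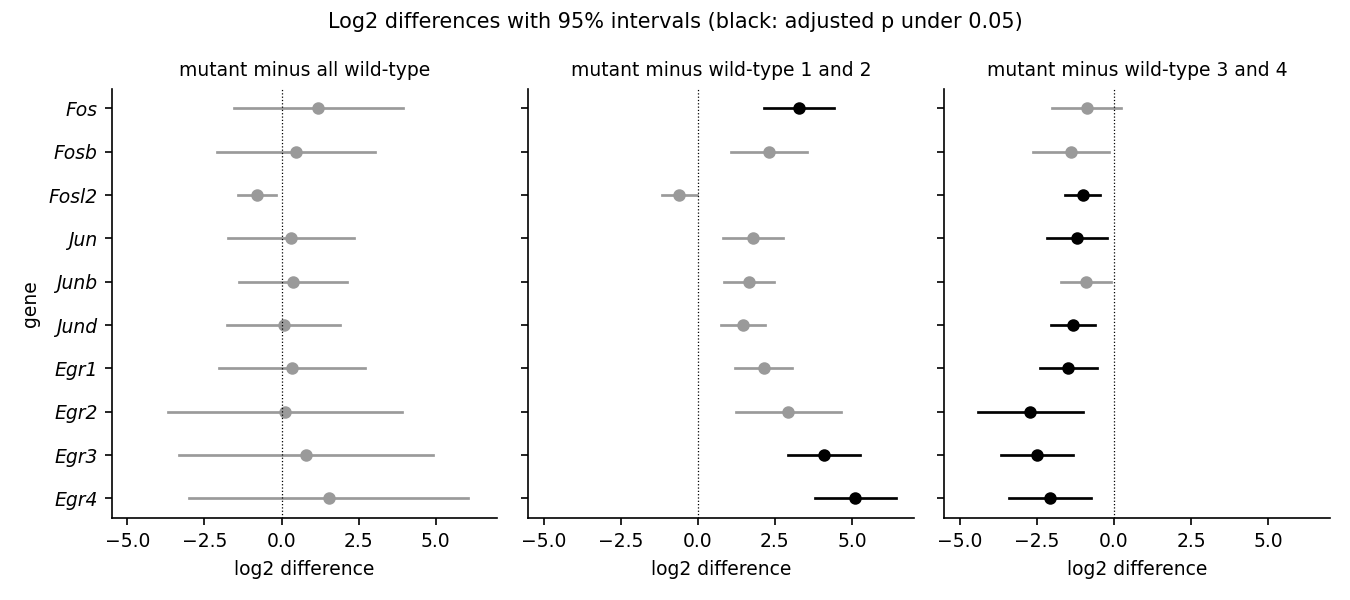
Log2 differences of the 10 factors (points) with 95% intervals from limma (lines) for mutant minus all wild-type, mutant minus wild-type 1 and 2, and mutant minus wild-type 3 and 4, with called genes in black. 9 points are right of 0 in the middle panel and all 10 are left of 0 in the right panel.

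Fos, the archetype of the class and a partner of the Jun proteins in AP-1, lies on chromosome 12 (85473890 to 85477273, plus strand, GRCm38). It had 56786, 134259 and 58041 normalized counts in mutant 1, 2 and 3, against 135480 and 147158 in wild-type 3 and 4 and against 4007 and 15386 in wild-type 1 and 2. Mutant 2 nearly reached wild-type 3, and the other mutant libraries lay clearly between the pairs. Fos rose in mutant libraries relative to wild-type 1 and 2, with a log2 difference of 3.28 (SE 0.51, limma adjusted p = 0.0360). Without wild-type 1 that difference was 2.31 with an adjusted p of 0.383. Relative to wild-type 3 and 4 it was -0.89 (SE 0.51, adjusted p = 0.173), which did not pass although the groups did not overlap.

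Fosb, a close relative of Fos with shorter splice forms, lies on chromosome 7 (19302696 to 19310051, minus strand). Its 2375, 2626 and 2658 normalized counts in mutant 1, 2 and 3 stood against 5516 and 8277 in wild-type 3 and 4 and against 205 and 1255 in wild-type 1 and 2. The mutant values were close together and fell into the gap between the pairs. The log2 difference was 2.32 against wild-type 1 and 2 (SE 0.55, adjusted p = 0.130) and -1.41 against wild-type 3 and 4 (SE 0.55, adjusted p = 0.0597), and neither passed.

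The deposited FPKM table, which the authors estimated per transcript, split Fosb into 7 transcripts. The transcript that encodes the full-length protein of 338 residues was at 3.87, 7.49 and 5.63 FPKM in mutant 1, 2 and 3, against 34.1 and 57.2 in wild-type 3 and 4, 0.449 in wild-type 2 and nearly 0 in wild-type 1. The retained-intron transcript, which is not annotated as coding, was at 13.9, 9.27 and 11.03 FPKM in mutant libraries, against 11.9 and 10.4 in wild-type 3 and 4 and against 1.85 and 9.46 in wild-type 1 and 2. It varied far less among libraries than the full-length one, wild-type 1 apart. Its share of all Fosb FPKM was 55.3%, 34.3% and 38.7% in mutant libraries, against 20.8% and 11.9% in wild-type 3 and 4 and against 85.5% and 70.2% in wild-type 1 and 2. These shares ran opposite to the total level of the gene, with the mutant libraries again between the pairs. The transcript of 237 residues that encodes delta FosB, the stable short form, was at 0.143 FPKM in mutant 2, at 0.369 and 1.04 in wild-type 3 and 4 and near 0 in the other libraries. The FPKM values carry no depth or error of their own, and the split of reads among overlapping transcripts is an estimate.

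**Figure D3:**
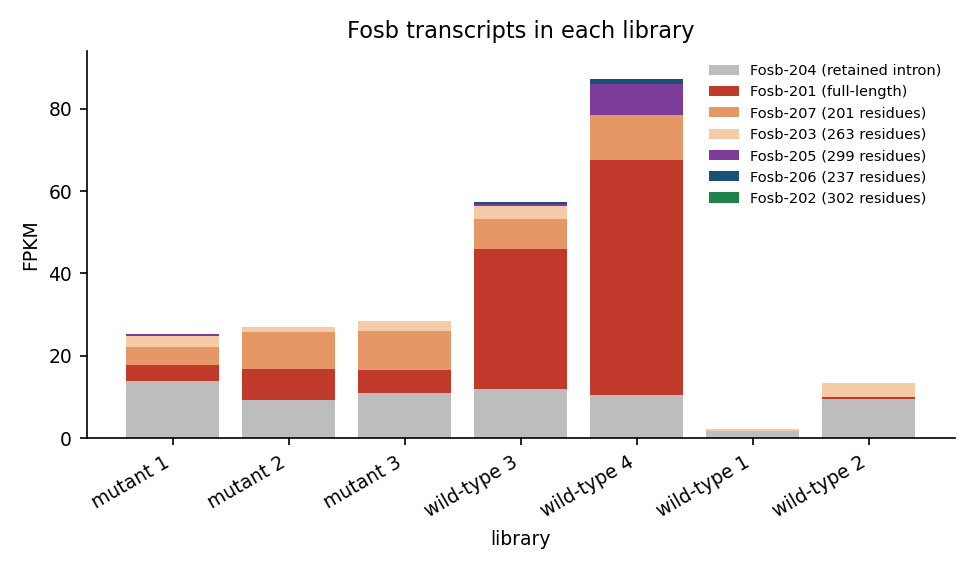
FPKM of the 7 Fosb transcripts, stacked from 0, in each library. The grey bar (retained intron) is 9.27 to 13.9 in mutant libraries and 10.4 to 11.9 in wild-type 3 and 4, whereas the red bar (full-length) is 3.87 to 7.49 and 34.1 to 57.2.

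Fosl2 on chromosome 5 (32135801 to 32157842, plus strand) encodes Fra-2, a Fos relative that appears later and persists longer after a stimulus. It had 222, 173 and 222 normalized counts in mutant 1, 2 and 3, against 313 and 550 in wild-type 3 and 4 and against 327 and 294 in wild-type 1 and 2. No mutant value reached the lowest wild-type value, which held for 4.34% of all genes tested. The log2 difference from all wild-type libraries was -0.81 (SE 0.27, adjusted p = 0.538). Relative to wild-type 3 and 4 Fosl2 fell by 1.02 on the log2 scale (SE 0.26, adjusted p = 0.00874), and without wild-type 4 the difference was -0.61 (adjusted p = 0.130). Relative to wild-type 1 and 2 it was -0.60 (SE 0.26, adjusted p = 0.402). Fosl2 was the member with the same sign in every comparison with mutant libraries and under every alternative tried, and between the wild-type pairs it had a log2 difference of 0.42 (SE 0.28, not called) with overlapping values.

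The coding transcript of Fosl2 was at 0.742, 0.699 and 0.873 FPKM in mutant libraries, against 0.980 and 2.42 in wild-type 3 and 4 and against 0.926 and 0.723 in wild-type 1 and 2. The retained-intron transcript of Fosl2, which had the higher mean over the 7 libraries but was below the coding one in mutant 2, mutant 3 and wild-type 4, was at 0.951, 0.498 and 0.805 FPKM in mutant libraries, against 1.62 and 1.60 in wild-type 3 and 4 and against 1.69 and 1.75 in wild-type 1 and 2. The groups thus overlapped in the coding transcript and did not overlap in the retained-intron one, both near the low end of the FPKM scale.

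Jun, the AP-1 member that can pair with itself and is activated by the kinase JNK, lies on chromosome 4 (95049034 to 95052222, minus strand). It had 80074, 106485 and 48150 normalized counts in mutant 1, 2 and 3, against 185450 and 155996 in wild-type 3 and 4 and against 12047 and 37646 in wild-type 1 and 2. Mutant 3 was closest to wild-type 2, and no groups overlapped. Jun fell by 1.19 on the log2 scale relative to wild-type 3 and 4 (SE 0.44, adjusted p = 0.0451), near the threshold, and the difference from wild-type 1 and 2 was 1.80 (SE 0.44, adjusted p = 0.135). Quantile normalization, DESeq2 and the omission of any single library among mutant 1, mutant 3, wild-type 3 and wild-type 4 ended the call, the differences without these libraries being -0.88 (without mutant 3) to -1.32 (without wild-type 4). The antisense gene Junos overlaps Jun, and Prdx2 overlaps Junb on the other strand, and in these unstranded libraries reads from such partners cannot be told apart.

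Junb, known in mouse stem cells as a brake on expansion, lies on chromosome 8 (84974484 to 84978718, minus strand). It had 20279, 32707 and 12706 normalized counts in mutant libraries, against 37730 and 38844 in wild-type 3 and 4 and against 4594 and 9028 in wild-type 1 and 2. Mutant values of Junb spread over most of the range between the pairs. Log2 differences were -0.91 relative to wild-type 3 and 4 (SE 0.36, adjusted p = 0.0612) and 1.66 relative to wild-type 1 and 2 (SE 0.36, adjusted p = 0.106), and neither passed.

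Jund, the most broadly expressed Jun gene, also lies on chromosome 8 (70698949 to 70700616, plus strand) and had 10604, 15692 and 9740 normalized counts in mutant 1, 2 and 3. Wild-type 3 and 4 had 30370 and 28655, and wild-type 1 and 2 had 2761 and 6616. The mutant libraries were well apart from both pairs. Jund fell by 1.33 on the log2 scale relative to wild-type 3 and 4 (SE 0.32, adjusted p = 0.00707), where without wild-type 3 it was -1.29 with an adjusted p of 0.0516, and its difference from wild-type 1 and 2 was 1.46 (SE 0.32, adjusted p = 0.106).

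Egr1 had 27240, 53022 and 22843 normalized counts in mutant 1, 2 and 3, against 92003 and 86823 in wild-type 3 and 4 and against 4350 and 12216 in wild-type 1 and 2. Even mutant 2 was far below wild-type 3 and 4, and even mutant 3 was above wild-type 2. Egr1 fell by 1.48 on the log2 scale relative to wild-type 3 and 4 (SE 0.42, adjusted p = 0.0155), a call lost without wild-type 3 (-1.44, adjusted p = 0.0821) or without wild-type 4 (-1.52, adjusted p = 0.0677). Relative to wild-type 1 and 2 its difference was 2.14 (SE 0.42, adjusted p = 0.0716).

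Egr2, Egr3 and Egr4 were far less abundant and passed the filter through their mutant and wild-type 3 and 4 libraries, so that some difference from wild-type 1 and 2, where they had under 10 normalized counts, was implied by the filter. Egr2, also called Krox20 and best known for myelination and for restraining T cells, lies on chromosome 10 (67535475 to 67542188, plus strand). It was counted in 36, 235 and 16 reads in mutant 1, 2 and 3, against 371 and 522 in wild-type 3 and 4 and against 5 and 7 in wild-type 1 and 2. Mutant 2 held most of the mutant reads. Egr2 fell by 2.71 on the log2 scale relative to wild-type 3 and 4 (SE 0.77, adjusted p = 0.0154), and its difference from wild-type 1 and 2 was 2.94 (SE 0.77, adjusted p = 0.163).

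Egr3, which acts with Egr2 in T cells, lies on chromosome 14 (70077203 to 70082614, plus strand) and was counted in 23, 71 and 20 reads in mutant 1, 2 and 3. Wild-type 3 and 4 had 171 and 334 reads, and wild-type 1 and 2 had 1 read each. All mutant libraries were thus many times above the single reads of wild-type 1 and 2. Egr3 rose by 4.09 on the log2 scale relative to wild-type 1 and 2 (SE 0.52, adjusted p = 0.0192) and fell by 2.51 relative to wild-type 3 and 4 (SE 0.52, adjusted p = 0.00362).

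Egr4, a family member best known from neurons and male germ cells, lies on chromosome 6 (85511121 to 85513589, minus strand) and was counted in 100, 290 and 35 reads in mutant 1, 2 and 3. Wild-type 3 and 4 had 538 and 550 reads, and wild-type 1 and 2 had 2 reads each. It rose by 5.11 on the log2 scale relative to wild-type 1 and 2 (SE 0.60, adjusted p = 0.0148), the fifth highest difference of all genes tested, and fell by 2.07 relative to wild-type 3 and 4 (SE 0.60, adjusted p = 0.0166). Since log2(value + 1) understates the change of such low genes, the ratio of pooled reads per size factor between mutant libraries and wild-type 1 and 2 is also given, with an exact 95% interval for counting error only. The ratio was 15.8 (8.92 to 31.0) for Egr2, 37.7 (10.2 to 315) for Egr3 and 70.3 (27.2 to 259) for Egr4. Mutant 2 carried much of these ratios: without it they were 4.73 for Egr2, below its interval, 23.5 for Egr3 and 36.9 for Egr4, values computed after the data were seen.

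On a scale of normalized counts per kb of exon, averaged over the 7 libraries, the levels ran from Fos (33474) and Jun (28036) through Junb (9678), Egr1 (9510) and Jund (8945) to Fosb (524), Egr4 (88.0), Egr2 (43.1), Fosl2 (31.0) and Egr3 (17.4). The steps from Jun to Junb, from Jund to Fosb and from Fosb to Egr4 held in all 7 libraries. Fos was above Jun per kb in 3 of 7 libraries: the Fos to Jun ratio was 0.96, 1.71 and 1.63 in mutant 1, 2 and 3, against 0.99 and 1.28 in wild-type 3 and 4 and against 0.45 and 0.55 in wild-type 1 and 2. Junb, Egr1 and Jund changed places among libraries, and so did Egr4, Egr2, Fosl2 and Egr3. Within the mutant group, mutant 2 was the highest library in 8 of the 10 genes, all but Fosb and Fosl2, and mutant 3 the lowest in 7.

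Mutant 1 and 2 can be set against wild-type 3 and 4 within the title series that they share, and mutant 3 against wild-type 1 and 2 outside it. Within the series, limma called 6 members lower in mutant 1 and 2 (Fosl2, Jund, Egr1, Egr2, Egr3 and Egr4), where 22.3% of all genes tested were called lower, and the log2 differences of the 10 members ran from -2.27 (Egr3) to -0.57 (Junb). Outside it, 9 members had positive log2 differences of 0.98 (Junb) to 3.79 (Egr4) in mutant 3, of which that of Egr4 was called (adjusted p = 0.0290), where 0.112% of all genes were called higher, and Fosl2 was at -0.48. Mutant 3 is a single library there and is assumed to vary like the others. It also shares no title series with wild-type 1 and 2, so genotype and title cannot be told apart in that comparison. The mutant minus wild-type differences within and outside the series were opposite in sign for all members but Fosl2. A test of the difference between them, chosen after seeing the data, passed for 6 members, all in the negative direction, where 6.87% of all genes tested passed in that direction. That test contains the difference between the wild-type pairs given above, so it is not a result separate from that difference. With the title series as a covariate, Fosl2 was the 1 member called over all 7 libraries (log2 difference -0.84, limma adjusted p = 0.0406). The same fit called 3597 genes (22.4%), and it put mutant 3 and wild-type 1 and 2 on the same level.

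Other immediate early genes often showed the same order. Of 40 listed, 38 were in the table and tested, and 22 of these (57.9%) had every mutant library between the wild-type pairs, against 4.07% of all genes tested. Relative to wild-type 1 and 2, 5 (13.2%) rose in mutant libraries, against 0.255% of all genes, and none fell, with a median log2 difference of 1.11: Klf4 by 5.01 (SE 0.52, adjusted p = 0.0148) and Klf2 by 4.20 (SE 0.59, adjusted p = 0.0268), both Krüppel-like transcription factors, the MAP kinase phosphatase Dusp1 by 1.99, the GTPase Rhob by 1.75 and the phosphatase subunit Ppp1r15a by 1.65. Klf4 had 664, 1710 and 750 normalized counts in mutant 1, 2 and 3, against 2684 and 3799 in wild-type 3 and 4 and against 14.2 and 56.1 in wild-type 1 and 2, with no overlap. Relative to wild-type 3 and 4, 21 (55.3%) fell and none rose, against 24.7% and 22.1% of all genes, with a median of -1.04, led by the nuclear receptor Nr4a1 (-3.97), the NF-kappaB inhibitor Tnfaip3 (-3.12), Csrnp1 (-2.50) and the phosphatase Dusp5 (-2.39). In wild-type 3 and 4, 34 (89.5%) were called higher than in wild-type 1 and 2, against 24.1% of all genes, and none lower. The median over all genes tested was close to 0 in each comparison.

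**Figure D4:**
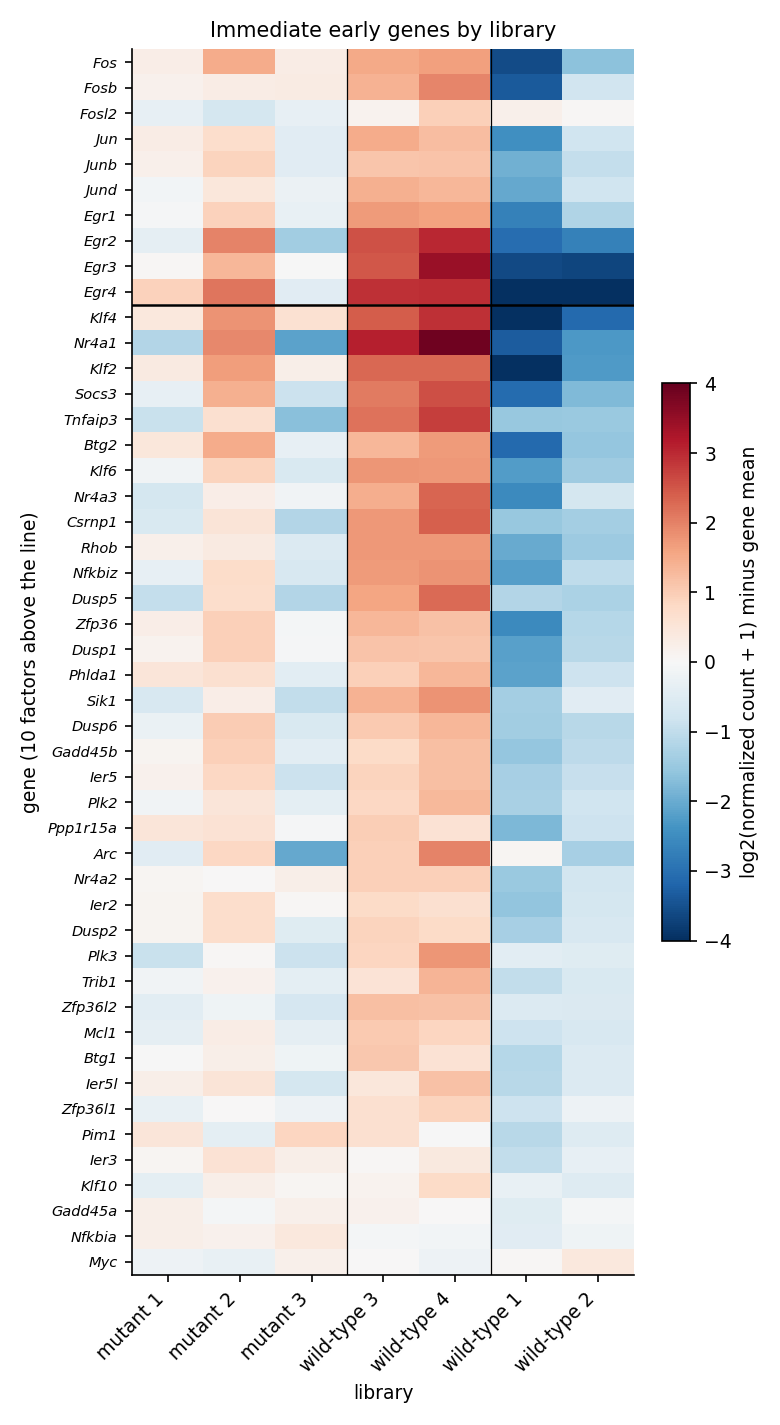
Deviation of each library from the gene mean on the log2(normalized count + 1) scale, for the 10 factors (above the line) and 38 other immediate early genes, with mutant libraries left, wild-type 3 and 4 in the middle and wild-type 1 and 2 right. Colours saturate at 4 and -4, which among the 10 factors the lowest value of Egr4 (-4.27) passes. Klf4 and Klf2 in wild-type 1 also lie below -4. Most rows are red in wild-type 3 and 4, blue in wild-type 1 and 2 and paler in mutant libraries.

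Of 13 listed AP-1 partners outside the members, 12 were tested, and 1 of these (8.33%) had every mutant library between the wild-type pairs, against 4.07% of all genes. None was called relative to wild-type 1 and 2. Relative to wild-type 3 and 4, 2 (16.7%) rose in mutant libraries, against 22.1% of all genes, namely Batf (1.03) and Batf2 (0.72), which pair with Jun proteins in immune cells, and 6 of the 12 fell, against 24.7%, led by the stress-induced Atf3 (-3.97), the Fos relative Fosl1 (-1.51) and the small Maf genes Mafk (-1.19) and Mafg (-0.71). Atf3 had 39.3, 915 and 42.3 normalized counts in mutant 1, 2 and 3, against 1002 and 3325 in wild-type 3 and 4 and against 5.46 and 43.6 in wild-type 1 and 2. Mutant 2 was close to wild-type 3, and mutant 1 and 3 were just below wild-type 2.

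Upstream of these genes, 26 of 28 listed kinases and transcription factors were tested. Of these, 3 (11.5%) had every mutant library between the pairs, against 4.07% of all genes. None of the 26 was called relative to wild-type 1 and 2. Relative to wild-type 3 and 4, 16 (61.5%) fell and none rose, against 24.7% and 22.1% of all genes, with a median log2 difference of -0.60, led by the ribosomal S6 kinases Rps6ka2 (-1.67) and Rps6ka4 (-1.15), by Creb1 (-1.23), which encodes CREB, and by the kinase Braf (-1.14). Of 4 EGR corepressors and reported EGR1 targets, 1 (25.0%) fell relative to wild-type 3 and 4, close to the 24.7% of all genes. It was the cell-cycle inhibitor Cdkn1a (-1.67, SE 0.55, limma adjusted p = 0.0305). None of the 4 was called relative to wild-type 1 and 2.

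Genes known from other tissues to be induced by dissociation were set beside the members. Over all the lists, 10 genes stand on more than 1, among them Dusp1, Atf3, Socs3, Nfkbiz and Klf6. Of 24 dissociation genes tested, 6 (25.0%) had every mutant library between the wild-type pairs, against 4.07% of all genes. All of these 6 but Dnajb1 also stand on the list of other immediate early genes. Of the 24, 2 (8.33%) rose in mutant libraries relative to wild-type 1 and 2 (Dusp1 and the chaperone gene Dnajb4, 0.84), against 0.255% of all genes. Relative to wild-type 3 and 4, 3 (12.5%) rose, against 22.1% of all genes, namely the metallothionein Mt1 (1.55) and the chaperones Hspe1 (1.16) and Hsp90aa1 (0.47), and 6 (25.0%) fell, against 24.7% of all genes, led by Atf3, Socs3 (-2.26), Nfkbiz (-1.83) and Klf6 (-1.69). Their summed level was 283696, 420942 and 263787 normalized counts in mutant 1, 2 and 3, against 452095 and 432642 in wild-type 3 and 4 and against 157154 and 180182 in wild-type 1 and 2. The mitochondrial share of reads was 1.11%, 0.683% and 1.17% in mutant libraries, against 0.363% and 0.412% in wild-type 3 and 4 and against 0.681% and 0.711% in wild-type 1 and 2. The part of dissociation and of the mitochondrial share in the members' differences was not tested. A further limma fit took each library's slope against log exonic length as a covariate. In the comparison with all 4 wild-type libraries it called 6 members higher (Fos, Junb, Egr1, Egr2, Egr3 and Egr4). Their log2 differences were 1.58 (Junb) to 4.77 (Egr4), and the same fit called 127 genes in all (0.791%). The slope sets wild-type 3 and 4 (0.24 in both) apart from the other libraries (-0.18 to 0.01). That fit therefore cannot separate length from a difference of this pair. In the values themselves, every mutant library lay below both wild-type 3 and 4 in all 6 members.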

How the data were processed

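RNA sequencing of 7 libraries was analysed (3 mutant, 4 wild-type), made with a PicoPure kit, SMART-Seq v4 and Swift 2S Plus, unstranded, per the labels' protocols. The submitters' processing notes name STAR 2.7.3a, HTSeq 0.6.1, DESeq2 1.12.4, Cufflinks 2.2.1, FastQC 0.11.7 and the build GRCm38, without options. Gene-level signal deposited by the authors is a normalized count, that is, reads divided by 1 size factor per library. In each library 100% of these values were whole multiples of 1 step (tolerance 0.01 reads), so whole reads were recovered. The second deposited table gives FPKM estimated by the authors per transcript. Of its 66660 transcripts, 66303 (99.5%) were matched to the GENCODE annotation, and FPKM was used for 8 of the 10 members. Exonic lengths came from the same annotation for 97.7% of genes.

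Genes with at least 10 normalized counts in at least 3 libraries were tested on log2(normalized count + 1) with limma's trend option (limma 3.58.1, R 4.3.3), as mutant and wild-type or as mutant, wild-type 1 and 2 and wild-type 3 and 4 with a shared spread. Tests were two-sided, at a Benjamini-Hochberg adjusted p of 0.05 over all genes tested. SE is limma's. On the recovered reads, edgeR 4.0.16 called 0, 24 and 7445 genes and DESeq2 1.42.0 called 107, 387 and 7836 genes for mutant minus all wild-type, minus wild-type 1 and 2 and minus wild-type 3 and 4. Alternatives changed the pseudocount, filter, scaling, test, table, covariates and libraries. No pairing was fitted: no label ties mutant to wild-type libraries, and replicate numbers only name them.

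All 10 members are named, with Calr, and from each gene list up to 4 called genes of greatest difference per direction and comparison. Klf4 and Atf3 counts, Ppp1r15a and Dnajb1 were added after their values were seen. A stem cell marker of the list is not reported here and not in the sum. The members and lists were chosen with earlier results of these data known, so no list is independent support. Counting intervals and totals cover counting error only.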

Additional observations from a re-analysis of the deposited data

Results flagged for a closer look

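Fosl2 in wild-type 4 had 550 normalized counts, far above the other wild-type libraries, which lay at 294 to 327. The gap to the next library was 0.873 of the range of the 4 wild-type values, past the Dixon critical value. Chance flags about 1 in 20 groups by this rule, and 10 genes were examined.

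Mutant 3 and wild-type 1 and 2 share no title series with each other, so their comparison is not matched by title. The difference within the shared title series (mutant 1 and 2 minus wild-type 3 and 4) was set against that outside it (mutant 3 minus wild-type 1 and 2). This was done in a single limma fit, a test chosen after seeing the data. The difference between them passed for 6 members, where 6.87% of all genes tested passed in the same direction. It was -3.58 on the log2 scale for Fos (adjusted p = 0.0238), -3.82 for Fosb (adjusted p = 0.0314), -2.38 for Jund (adjusted p = 0.0179), -2.88 for Egr1 (adjusted p = 0.0214), -5.87 for Egr3 (adjusted p = 0.00438) and -5.19 for Egr4 (adjusted p = 0.00220). Negative values mean that the mutant libraries were lower relative to wild-type within the series than outside it. The same difference was -2.06 for Jun, -1.55 for Junb, -3.45 for Egr2 and -0.60 for Fosl2, none of which passed. Mutant 3 is a single library and is assumed to vary like the others. The test also contains the difference of wild-type 3 and 4 from wild-type 1 and 2, so it is not a result separate from that difference.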

How the results depend on the processing

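In the comparisons of mutant libraries with either wild-type pair, and between the pairs, no member changed sign under any alternative. Against all 4 wild-type libraries, signs did change. edgeR gave log2 differences of -0.59 for Fosb, -0.33 for Jun, -0.054 for Junb, -0.52 for Jund, -0.52 for Egr1, -1.08 for Egr2, -1.49 for Egr3 and -0.74 for Egr4. DESeq2 gave -0.57, -0.31, -0.033, -0.50, -0.50, -1.07, -1.47 and -0.71 for the same genes in that order. Egr2 was at -0.068 with a pseudocount of 5, and Jund was at -0.15 after quantile normalization. With summed FPKM, Egr2 was at -0.28 and Egr4 at -0.056. There 1 was also added before the log, which understates differences of genes below 1 FPKM, as Egr2 and Egr4 were in wild-type 1 and 2. With the title series as a covariate, Jun was at -0.058, Jund at -0.24, Egr1 at -0.081 and Egr2 at -0.60. Leaving out single libraries gave ranges of -0.60 to 1.18 for Fosb, -0.47 to 0.85 for Jun, -0.22 to 0.81 for Junb, -0.61 to 0.54 for Jund, -0.52 to 0.95 for Egr1, -0.88 to 1.14 for Egr2 and -0.32 to 2.05 for Egr3, the changes of sign coming without wild-type 1, wild-type 2 or mutant 2. Counts of called genes against all wild-type libraries became 107 with DESeq2 and 3597 (22.4%, 1 member) with the title series as a covariate. With the length slope as a covariate the count was 127 (0.791%, 6 members: Fos, Junb, Egr1, Egr2, Egr3 and Egr4).

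Against wild-type 1 and 2, the 50 called genes (3 members) became 30 after quantile normalization, 24 (1 member) with edgeR, 387 (7) with DESeq2, 6 (0) with summed FPKM, which tests fewer genes and holds 8 members, and 27 (1) with mutant 3 alone. Leaving out single libraries gave 0 to 595 genes and 0 to 8 members, with 0 without wild-type 1 and 595 without mutant 2. Against wild-type 3 and 4, DESeq2 called 3 members lower (Fosl2, Jund and Egr3). The same fit called 48.8% of all genes tested, 3838 higher and 3998 lower. In that comparison, leaving out single libraries gave 4348 (without wild-type 3) to 8969 genes (without mutant 2) and 1 to 10 members. Between the wild-type pairs the range was 4342 to 8513 genes. The cause of these changes was not tested, except that a fit without a library holds fewer samples. Quantile normalization put the median of all genes at 0.10 for mutant minus wild-type 3 and 4 and at -0.11 between the pairs. The first was closer to 0 than every member's difference, and the second than that of every member but Fosl2. The called genes were then 4379 higher and 3465 lower (3543 and 3968 without it) for mutant minus wild-type 3 and 4, and 3321 higher and 4184 lower (3863 and 3352 without it) between the pairs. No paired analysis was possible because no label ties a mutant library to a wild-type one, and replicate numbers only name the libraries. Depth limits Egr2, Egr3 and Egr4, with 1 to 7 reads in wild-type 1 and 2.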
